A study of Mus musculus with 12 samples.

Results

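Complement and coagulation genes were followed as 34 genes named in a fixed list of symbols, out of 54532 genes in the count table, measured in 12 tumors that arose in the mammary glands of female MMTV-Neu mice. These mice carry wild-type Neu, the rodent HER2, under the mouse mammary tumor virus promoter and develop mammary tumors. Established tumors were exposed through the diet of the mice for 10 days. The groups were 4 tumors from mice fed control diet (Control), 4 from mice fed the retinoid X receptor (RXR) agonist MSU-42011 at 100 mg/kg of diet, and 4 from mice fed bexarotene, an approved RXR agonist, at 100 mg/kg of diet. The genotype MMTV-Neu was shared by the 3 groups. Age was not given in the sources used here, and the control mice received the same chow with drug vehicle. RNA came from frozen tumor pieces, each of which holds tumor epithelium with stroma, so a lower level cannot be told apart as fewer cells of a type or less RNA per cell. The comparisons asked how each agonist changed these genes against control diet and against the other agonist, and which members moved with markers of stromal cells or of luminal epithelium.

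Complement is a cascade of plasma and tissue proteases. It is started by C1 on antibody, by the mannose-binding lectin proteases on sugars, or by the alternative pathway, and each route cleaves C3 and then C5. The small fragments recruit leukocytes through receptors, the terminal components form a pore, and membrane regulators such as CD55 and CD59 protect the cells that carry them. Coagulation starts when tissue factor meets factor VII, ends in fibrin that factor XIII crosslinks, and is held back by endothelial anticoagulants and by the plasminogen activators. Much of the plasma supply of these proteins is made in liver, while macrophages, fibroblasts and endothelium make many of them in tissues.

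To show the sequence before the starts of some members named in the results, 250 bases upstream of the RefSeq transcript start (build GRCm38.p6) are printed for C3, F7, Cd59a and F3. C3 was high in 1 bexarotene tumor, and F3 had the highest level per length in control tumors. F7 (exact test) and Cd59a (edgeR) had lower levels under MSU-42011 than under control diet at an unadjusted p under 0.05. Cd59a had no adjusted call, and F7 was below the filter on low counts and had no adjusted p in the main fit. Capitals mark AGGTCA, the half-site of nuclear receptors, on either strand (TGACCT on the printed strand in F7), or, in Cd59a, an interferon response core (GAAA repeated after a gap of 2 bases). F3 held neither.
C3, chr17:57228137-57228386, minus strand: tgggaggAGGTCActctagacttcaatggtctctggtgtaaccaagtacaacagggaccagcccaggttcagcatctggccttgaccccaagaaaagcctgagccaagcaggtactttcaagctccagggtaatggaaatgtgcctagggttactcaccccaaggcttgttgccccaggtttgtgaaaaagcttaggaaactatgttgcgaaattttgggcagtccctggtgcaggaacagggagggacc
F7, chr8:13025784-13026033, plus strand: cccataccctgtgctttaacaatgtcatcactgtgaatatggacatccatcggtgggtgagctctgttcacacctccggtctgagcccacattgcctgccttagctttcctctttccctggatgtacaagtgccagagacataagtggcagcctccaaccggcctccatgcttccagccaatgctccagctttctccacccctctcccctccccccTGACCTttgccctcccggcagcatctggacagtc
Cd59a, chr2:104095551-104095800, plus strand: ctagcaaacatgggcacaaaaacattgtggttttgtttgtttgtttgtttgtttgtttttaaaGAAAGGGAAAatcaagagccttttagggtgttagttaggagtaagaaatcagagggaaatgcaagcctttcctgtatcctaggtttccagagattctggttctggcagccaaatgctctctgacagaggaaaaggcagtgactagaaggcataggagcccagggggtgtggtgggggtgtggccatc
F3, chr3:121723287-121723536, plus strand: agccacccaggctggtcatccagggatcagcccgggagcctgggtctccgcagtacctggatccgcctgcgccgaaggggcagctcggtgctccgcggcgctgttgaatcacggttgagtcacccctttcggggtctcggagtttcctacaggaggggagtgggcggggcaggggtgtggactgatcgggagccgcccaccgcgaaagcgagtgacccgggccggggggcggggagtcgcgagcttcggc
The half-site lay at bases -243 to -238 of C3 and -34 to -29 of F7, counted back from the start. The interferon core lay at bases -187 to -178 of Cd59a. RefSeq upstream windows were found for 23 of the 34 members (26 windows), and 8 of these 26 held AGGTCA, beside 14.02% of 32851 windows of all genes. A direct repeat of AGGTCA with a spacer of 0 to 5 bases was found in 0 of the 26 and in 0.079% of all windows. The interferon core was in 1 of the 26 and in 2.98% of all. These matches describe letters in a window, not binding.

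Total counts ran from 16583413 to 25925027 per tumor, so that 3 counts, used as the floor of detection, correspond to 0.111 to 0.184 CPM (counts scaled to a common library total). Of the 34 members, 27 passed the filter on low counts and were tested among 15504 genes. The other 7 were Masp2, Cfb, C6, C7, Cfi, F7 and F10. Bexarotene replicate 1 stood apart from the remaining 11 tumors. Its median correlation with the others was 0.915, where every other tumor had at least 0.961. Its 13 fibroblast markers summed to 12050 CPM, against a range of 112 to 991 CPM in the others, and all 13 were above every other tumor and at least 2 times their median, as were all 10 macrophage and all 8 endothelial markers. Its 10 macrophage markers summed to 1496 CPM (others 172 to 596) and its 8 endothelial markers to 488 CPM (others 91.1 to 241). The sum of 10 luminal epithelial markers was 3547 CPM, below the 5435 to 7173 CPM of the others, with 1 of the 10 high and 1 low. The high marker was Krt19, with 763 counts in this tumor and 0 to 41 in the others. Skeletal muscle markers were at 253 CPM in this tumor and 140 CPM in Control replicate 1, and at 1.26 to 3.98 CPM in the other 10 tumors. Platelet markers summed to 30.4 CPM (others 3.41 to 11.9), adipocyte markers to 104 CPM (29.7 to 47.9), myoepithelial markers to 260 CPM (26.3 to 117) and neutrophil markers to 11.1 CPM (1.66 to 9.09), each above all other tumors, while T cell markers (5.09 CPM) lay within the others. The 8 hepatocyte markers summed to 2133 CPM in this tumor and 1397 to 4322 CPM in the others. Nearly all of that was Trf (1396 to 4319 CPM over the 12 tumors), followed by Ahsg (0.284 to 8.42 CPM), while Alb was at most 0.0535 CPM and Ttr at 0 in all 12. The part of these cell types in the results was not tested. Each result that rests on bexarotene replicate 1 is therefore given with and without it.

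**Figure D1:**
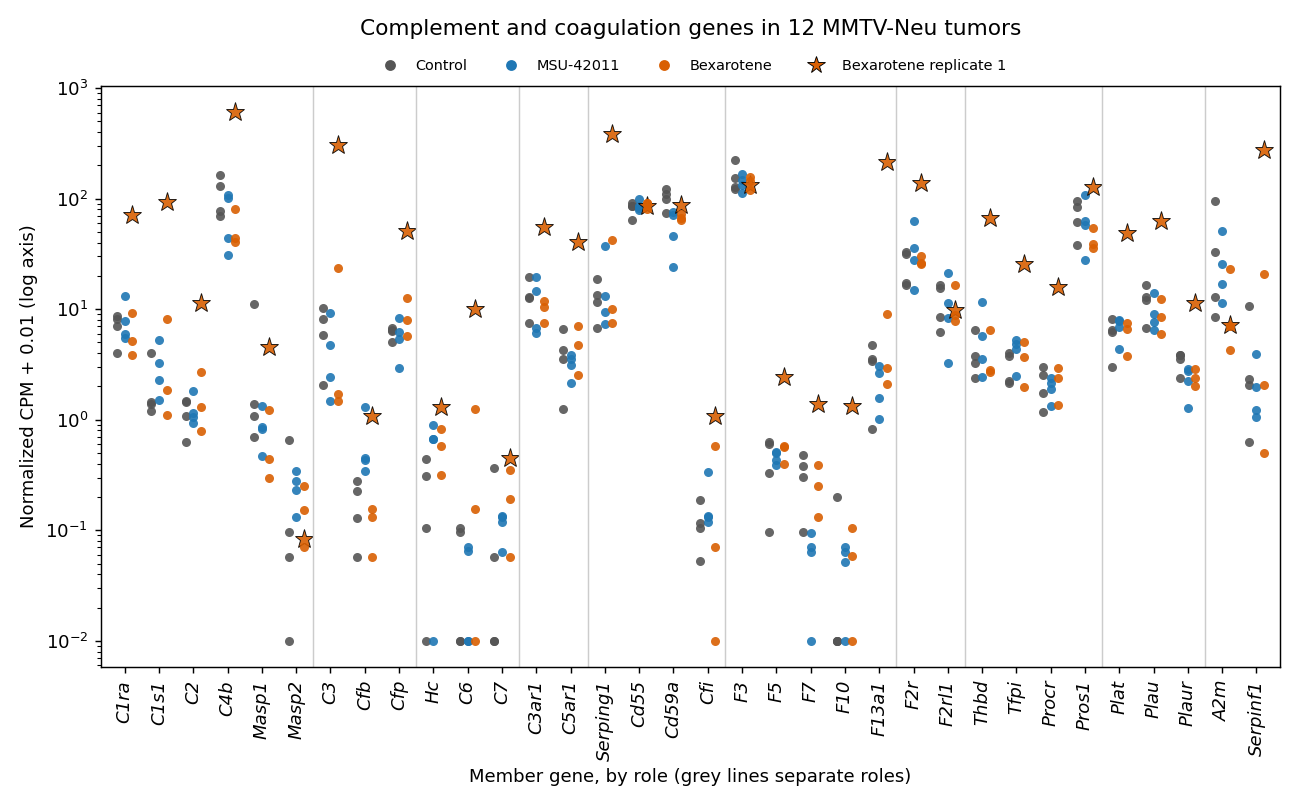
Normalized CPM of the 34 members (log axis, 0.01 added) by role, with 1 point per tumor, coloured by diet group, and a star for bexarotene replicate 1. The star lies above the other 11 tumors in 26 of 34 members and inside their range in F3, Cd55, Cd59a, F2rl1 and A2m.

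Bexarotene replicate 1 held more RNA of most complement and coagulation genes than any other tumor. High was taken as above all other 11 tumors and at least 2 times their median. By this measure 26 of 34 members were high and 0 were low. Among the 27 tested members 21 were high, while 11.5% of all tested genes were high and 0.793% were low. The members were chosen with earlier results of these data known, so these shares describe the list and are not a test of it. The 34 members took 0.309% of the counts of this tumor and 0.0393% to 0.0813% in the others. The members not high were Masp1 and Cfb, which were second highest in this tumor, and Masp2, F3, Cd55, Cd59a, F2rl1 and A2m. In 10 of the 26 high members the second highest tumor was bexarotene replicate 2, whose fibroblast markers (991 CPM) were also second highest.

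The size of the excess differed between members. Against the median of the other 11 tumors, normalized CPM in bexarotene replicate 1 was 136 times as high for Serpinf1, 73.0 times for F13a1, 64.9 times for C3, 50.2 times for C1s1 and 33.2 times for Serping1. These 5 tested members exceeded the ratio of every macrophage marker (2.10 to 24.97) and every endothelial marker (2.31 to 10.48), and lay within the 4.78 to 712 of fibroblast markers. They also lay within the 18.0 to 736 of skeletal muscle markers. The largest ratios of adipocyte (82.3), luminal epithelial (83.0) and myoepithelial (48.2) markers were between those of Serping1 and Serpinf1. The macrophage markers Mrc1 and Cd163 had the largest ratios of their list, and F13a1 was above both. The next members were Thbd at 19.1 times and C5ar1 at 11.5 times, both above every endothelial marker and within the ranges of macrophage and fibroblast markers. C1ra, C2, Cfp, C4b, Procr, Plat, Plau and Tfpi lay between 6.70 and 9.99 times, within the ranges of macrophage, endothelial and fibroblast markers. F2r, F5, C3ar1, Plaur, Hc and Pros1 lay between 2.20 and 4.92 times, in the range of macrophage markers. All but Pros1 were also in the range of endothelial markers, and F2r and F5 in that of fibroblast markers. F3 at 0.926 times, Cd55 at 1.00, F2rl1 at 1.11 and Cd59a at 1.22 were near the other tumors in a tumor whose luminal epithelial markers summed to 0.571 times the median. A2m was at 0.425 times. Which cells made each transcript was not tested.

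**Figure D2:**
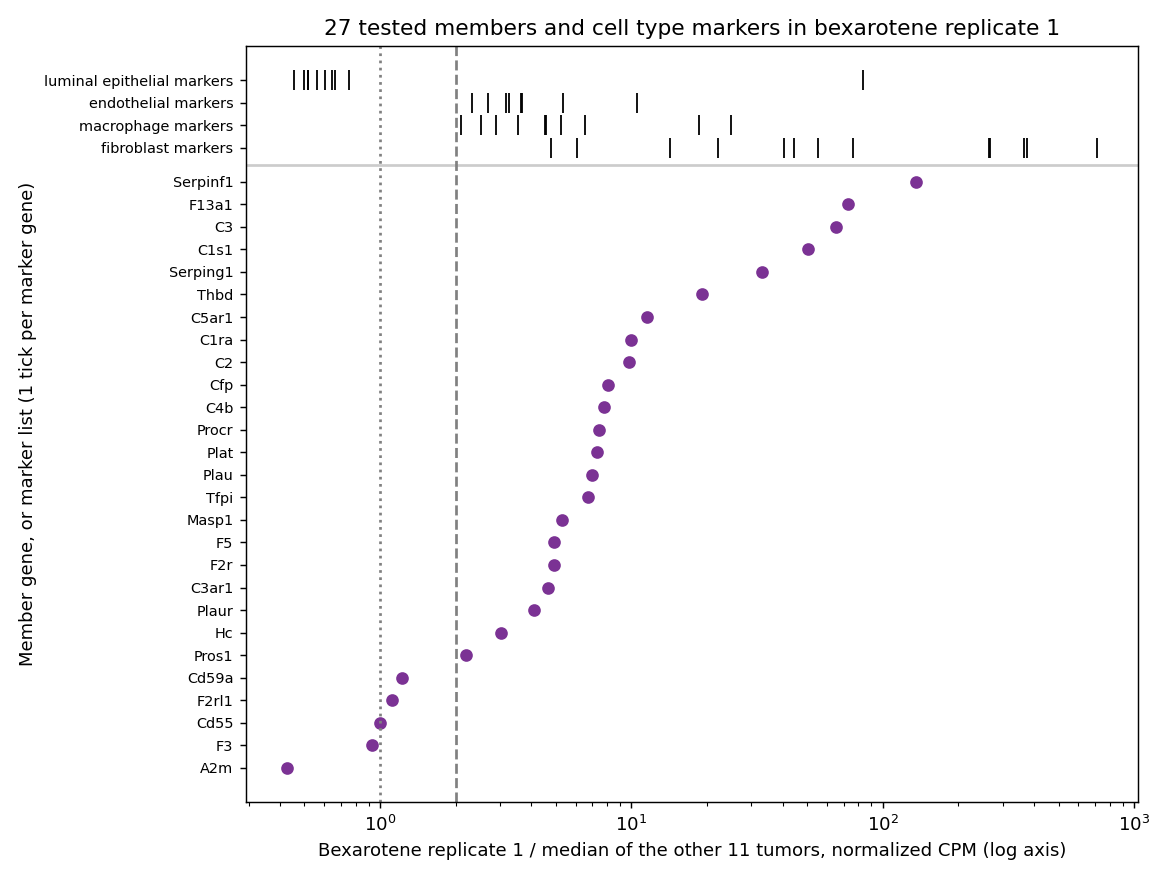
Ratio of normalized CPM in bexarotene replicate 1 to the median of the other 11 tumors (log axis) for the 27 tested members and, above the grey line, for each gene of 4 marker lists. Dotted and dashed lines stand at 1 and 2; Serpinf1, F13a1, C3, C1s1 and Serping1 lie to the right of all macrophage and endothelial markers, and A2m, F3, Cd55, F2rl1 and Cd59a lie to the left of 2.

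For MSU-42011 against control, estimates for the 27 members ran from -2.06 (Masp1) to 1.38 (Hc) on the log2 scale. Cd59a, the membrane inhibitor of the complement pore, was lower in MSU-42011 tumors, and it was the 1 tested member with an unadjusted p under 0.05. The median log2 fold change of the 27 members was -0.12, with 11 above 0 and 16 below, beside a median of 0.0016 over all genes. In edgeR's quasi-likelihood test 0 of 27 members passed a Benjamini-Hochberg adjusted p of 0.05 (0% of all genes), and DESeq2 called 0 members (0.00651% of all genes). At an unadjusted p under 0.05, edgeR found 0 members higher (1.14% of all genes) and 1 lower (0.851%), and DESeq2 found 1 of the 23 members to which it gave a p (2.39% of genes). Its filter on Cook's distance gave none to C1ra, Masp1, F13a1 and Thbd, in any comparison. In limma on log2(FPKM + 1), 0 members passed the adjustment in any comparison, and 1 had an unadjusted p under 0.05 in each, against 2.31% of genes here, 3.61% for bexarotene against control, 2.01% between the agonists and 2% among the 3 groups. The 95% interval stayed within 2-fold either way for 2 of 27 members, and for 8 without bexarotene replicate 1, so larger differences were not excluded for the rest. Among the tested members, 0 had groups that did not overlap (1.97% of all genes). Without bexarotene replicate 1, which enters the shared estimate of spread, 0 members were higher (1.54% of genes) and Cd59a and Masp1 were lower (1.09%) at an unadjusted p under 0.05. Masp1 was at 11.2 CPM in Control replicate 2 and at most 1.36 CPM in the other control tumors.

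Bexarotene tumors had log2 fold changes above 0 against control tumors for 21 of 27 members, and for 16 of 27 without bexarotene replicate 1. The 11 members higher at an unadjusted p under 0.05 were C1s1, C2, C3, Cfp, C5ar1, Serping1, F13a1, Thbd, Tfpi, Plat and Serpinf1, against 4.48% of all genes, and A2m was the 1 member lower, against 1.96%. The median log2 fold change was 1.42 over the 27 members and 0.03 over all genes. With the Benjamini-Hochberg adjustment of edgeR 0 members passed (0% of all genes), at adjusted p of 0.762 for 11 of these 12 and 0.773 for Plat. DESeq2 also called 0 members (0.0399% of all genes), with 12 of 23 at an unadjusted p under 0.05 (7.15% of genes). No tested member had groups that did not overlap (2.03% of all genes). Without bexarotene replicate 1 the median was 0.07, 0 members were higher (1.6% of genes) and C4b and Masp1 were lower (1.75%) at an unadjusted p under 0.05.

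**Figure D3:**
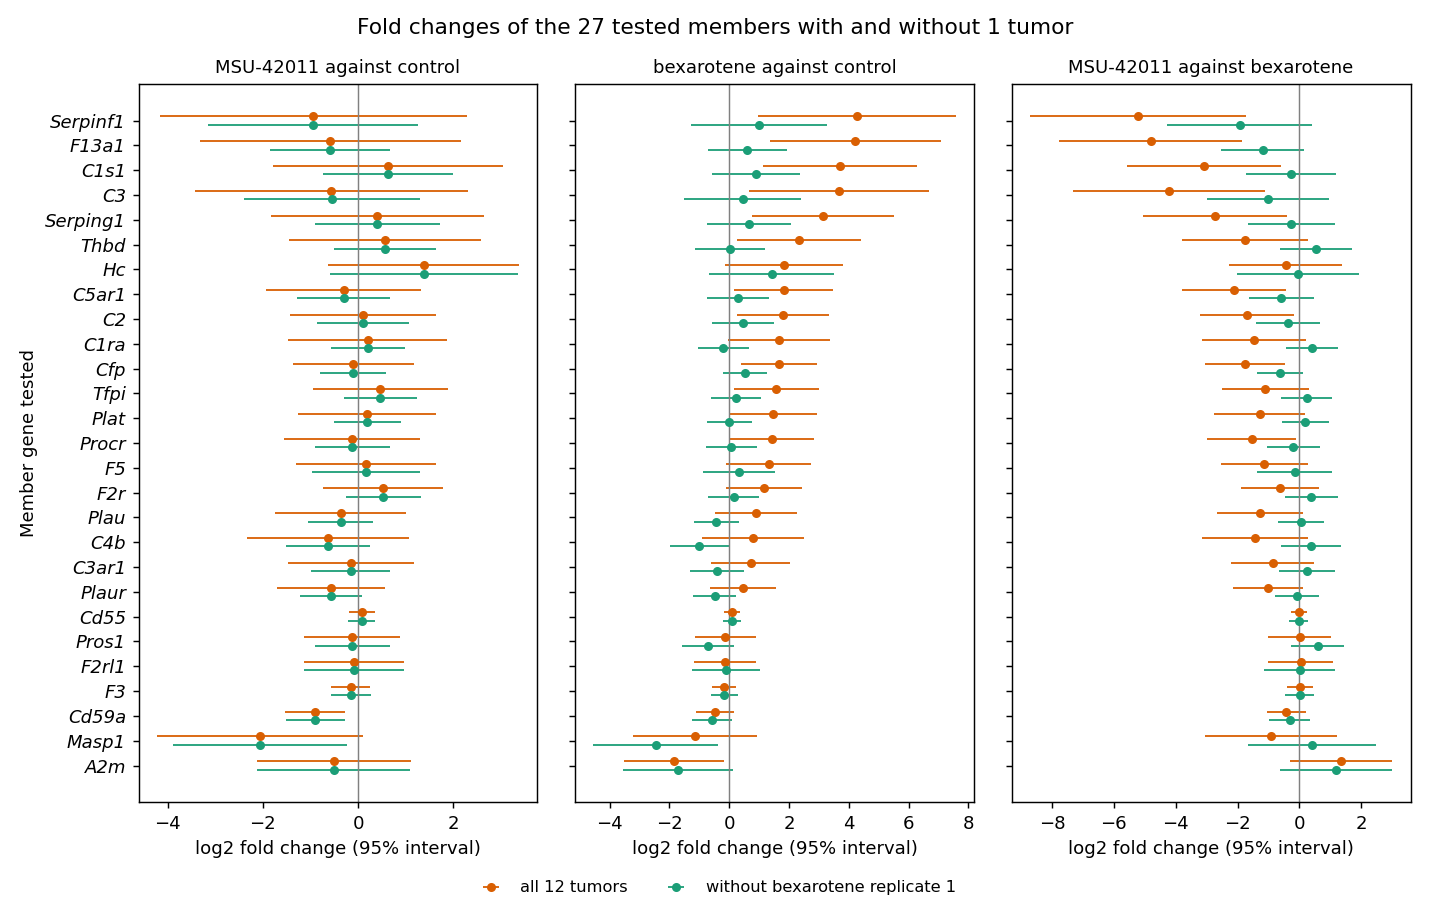
Log2 fold change of each tested member with its 95% interval (edgeR) in the 3 comparisons, for all 12 tumors (orange) and without bexarotene replicate 1 (green). In the panels with bexarotene the green points of C3, F13a1, Serpinf1, C1s1 and Serping1 lie nearer to 0 than the orange points, while Cd59a, F3 and Cd55 hardly move.

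The agonists were compared directly at the same dose and time. MSU-42011 tumors were lower than bexarotene tumors in 9 of 27 members at an unadjusted p under 0.05 (C1s1, C2, C3, Cfp, C5ar1, Serping1, F13a1, Procr and Serpinf1), against 3.13% of all genes, and 0 were higher, against 0.819%. In edgeR 0 passed the Benjamini-Hochberg adjustment, with adjusted p of 0.997 for each of the 9 (0% of all genes), and DESeq2 at its defaults called 0 (0.0261% of all genes) with 10 of 23 at an unadjusted p under 0.05 (4.5% of genes). DESeq2 without its filter on Cook's distance called F13a1, at a log2 fold change of -4.78 and adjusted p of 0.0489, as 1 of 25 members given an adjusted p (0.168% of genes). Among the tested members 0 had groups that did not overlap (1.17% of all genes). The median log2 fold change was -1.27 with all tumors (-0.02 over all genes) and -0.03 without bexarotene replicate 1, when 0 members were higher (1.59% of genes) and 0 lower (1.47%) at an unadjusted p under 0.05. In that fit the 95% interval of the difference between the agonists stayed within 2-fold either way for 6 of 27 members and within 4-fold for 21, so for the remaining 6 larger differences were not excluded. Cd55 was bounded most tightly, at -0.33 to 0.28 on the log2 scale, followed by F3 at -0.45 to 0.46.

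In the test among the 3 groups, 9 of 27 members had an unadjusted edgeR p under 0.05 (4.24% of all genes), namely C1s1, C2, C3, C5ar1, Cd59a, Cfp, F13a1, Serpinf1 and Serping1. By edgeR's Benjamini-Hochberg adjusted p 0 passed (0% of all genes), and DESeq2 called 0 members (0.0332% of all genes), with 11 of 23 at an unadjusted p under 0.05 (5.07% of genes). Without bexarotene replicate 1 the 9 became 2, Cd59a and Masp1, against 2.46% of genes.

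Of the classical pathway, C1ra and C1s1 encode the proteases of the C1 complex, and C2 and C4b encode the parts of the C3 convertase that they cleave. Normalized CPM of C1s1 was 3.98, 1.18, 1.44 and 1.38 in the control tumors, 3.24, 2.30, 5.25 and 1.51 in the MSU-42011 tumors and 92.5, 8.06, 1.84 and 1.10 in the bexarotene tumors. Bexarotene replicates 1 and 2 were the highest of the 12, and the other 2 bexarotene tumors lay within or just below the range of the controls. C1s1 had a log2 fold change of 3.71 ± 1.19 (SE) for bexarotene against control (edgeR, adjusted p = 0.762) and 0.89 without bexarotene replicate 1. C1ra had 70.5 CPM in bexarotene replicate 1 and 3.86 to 13.1 CPM in the others. The level of C2 was 11.3 CPM in that tumor and 0.615 to 2.72 CPM in the others, with a log2 fold change for bexarotene of 1.80 ± 0.70 (edgeR, adjusted p = 0.762) and 0.47 without that tumor. C1s1 and C2 had -3.08 and -1.70 for MSU-42011 against bexarotene, and -0.26 and -0.37 without it.

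C4b was the most abundant member by count in bexarotene replicate 1. Its levels were 130, 164, 78.0 and 69.6 CPM under control diet, 44.1, 31.1, 102 and 108 CPM under MSU-42011, and 606, 81.0, 43.9 and 40.3 CPM under bexarotene. The control tumors overlapped both treated groups. Without bexarotene replicate 1, C4b was lower in bexarotene tumors by a log2 fold change of -1.003 ± 0.452 (edgeR, unadjusted p = 0.0466, adjusted p = 0.978), while with it the value was 0.81 ± 0.78, so that 1 tumor turned the direction. Reads of C4b may be shared with its near-identical paralog C4a, and those of C1ra, C1s1, Cd55 and Cd59a with close paralogs, so these levels are uncertain to that extent. C2 overlaps Zbtb12 on the other strand.

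Masp1 and Masp2 encode proteases of the lectin pathway. Masp1 was at 1.36, 11.2, 0.695 and 1.08 CPM in control tumors, 1.32, 0.848, 0.813 and 0.461 CPM in MSU-42011 tumors, and 4.50, 0.286, 1.21 and 0.429 CPM in bexarotene tumors. Control replicate 2 held the highest level. The other control tumors, at 0.695 to 1.36 CPM, overlapped both treated groups, and each fold change given here for Masp1 includes Control replicate 2. The log2 fold change for MSU-42011 was -2.06 ± 1.00 with all tumors and -2.06 ± 0.84 without bexarotene replicate 1 (edgeR, adjusted p of 0.99986 and 0.99984). For bexarotene it was -1.13 with and -2.46 without that tumor (edgeR, adjusted p of 0.898 and 0.978). Masp1 overlaps Rtp4 on the other strand, which held 847 to 2962 counts per tumor against 6 to 236 for Masp1, and the strand setting of the counting was not given. Masp2 held 0 to 12 counts and overlaps Tardbp.

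C3, on which all routes converge, and properdin (Cfp), which stabilizes the alternative convertase, both followed bexarotene replicate 1. Levels of C3 were 8.07, 10.3, 5.88 and 2.07 CPM under control diet, 2.42, 4.73, 9.32 and 1.47 CPM under MSU-42011, and 307, 23.8, 1.70 and 1.47 CPM under bexarotene. The bexarotene group thus held the highest tumors and some of the lowest. The log2 fold change of C3 for bexarotene was 3.67 ± 1.38 and 0.46 without replicate 1, and for MSU-42011 against bexarotene it was -4.23 ± 1.43 and -1.01 without it (edgeR, adjusted p of 0.762 and 0.997 with all tumors). Cfp was at 51.4 CPM in bexarotene replicate 1, 12.7 CPM in replicate 2, and 2.93 to 8.34 CPM elsewhere. Its log2 fold change was 1.67 ± 0.59 for bexarotene and -1.77 ± 0.59 for MSU-42011 against bexarotene (edgeR, adjusted p of 0.762 and 0.997), and 0.52 and -0.62 without bexarotene replicate 1. Cfb, the protease of the alternative convertase, was below the filter. It held 2, 1, 5 and 5 counts in control tumors, 8, 7, 24 and 8 in MSU-42011 tumors, and 29, 1, 3 and 2 in bexarotene tumors. Every MSU-42011 tumor was above every control tumor in normalized CPM (0.335 to 1.30 against 0.0473 to 0.267). The exact two-sided permutation test gave p = 0.0286, the smallest that 4 against 4 tumors allow. Of the 34 members examined in that comparison, F7 reached it too, with the MSU-42011 tumors lower. Groups did not overlap in 1.97% of the tested genes, which leave out Cfb and F7.

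The terminal components were near the detection limit. Hc, which encodes mouse C5, was at 0 to 0.428 CPM in control tumors, 0 to 0.880 CPM in MSU-42011 tumors, and 0.307 to 1.29 CPM in bexarotene tumors. An exact permutation test of Hc for bexarotene against control gave p = 0.0571. C6 held 270 counts in bexarotene replicate 1, 26 in replicate 2 and 0 to 3 in the other 10 tumors. C7 held 0 to 12 counts. The receptors of the C3 and C5 fragments, C3ar1 and C5ar1, are carried by myeloid cells. Levels of C3ar1 were 55.8 CPM in bexarotene replicate 1 and 6.12 to 19.7 CPM elsewhere, and those of C5ar1 were 40.7 CPM and 1.23 to 6.96 CPM. C5ar1 had a log2 fold change for bexarotene of 1.82 ± 0.76 (edgeR, adjusted p = 0.762) and 0.28 without that tumor, and -2.12 and -0.58 for MSU-42011 against bexarotene.

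Serping1 encodes the C1 inhibitor. It was at 18.6, 13.5, 6.79 and 11.7 CPM in control tumors, 13.1, 9.33, 37.3 and 7.29 CPM in MSU-42011 tumors, and 388, 42.4, 10.03 and 7.54 CPM in bexarotene tumors. Bexarotene replicates 1 and 2 and MSU-42011 replicate 3 were the highest 3. Its log2 fold change for bexarotene was 3.15 ± 1.09 (edgeR, adjusted p = 0.762) and 0.66 without replicate 1, and for MSU-42011 against bexarotene it was -2.74 and -0.26. Cfi, which degrades C3b and C4b, held 29 counts in bexarotene replicate 1, 12 in replicate 2 and 0 to 6 elsewhere.

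The membrane regulators behaved otherwise. Cd55, which speeds the decay of C3 convertases, varied least of all members, with a coefficient of variation of 11.2% over the 11 tumors other than bexarotene replicate 1. It lay at 63.7 to 92.1 CPM in control tumors, 78.2 to 100.0 CPM in MSU-42011 tumors and 80.4 to 92.1 CPM in bexarotene tumors, and bexarotene replicate 1 was at 86.3 CPM. Cd59a was at 98.3, 122, 73.7 and 110 CPM under control diet, 70.9, 24.0, 46.1 and 75.2 CPM under MSU-42011, and 87.9, 63.8, 66.5 and 72.0 CPM under bexarotene. MSU-42011 replicate 4 overlapped Control replicate 3, and the other 3 MSU-42011 tumors were below all controls. The log2 fold change of Cd59a for MSU-42011 was -0.90 ± 0.29 (edgeR, unadjusted p = 0.0091, adjusted p = 0.99986), and the exact permutation test gave p = 0.0571. It was -0.66 without MSU-42011 replicate 2, the lowest tumor. For bexarotene the log2 fold change was -0.48 (95% interval -1.10 to 0.15), with exact permutation p = 0.0571, and 3 of 4 bexarotene tumors were below all controls. MSU-42011 against bexarotene gave -0.42 (95% interval -1.05 to 0.21), so a difference between the agonists was not shown.

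**Figure D4:**
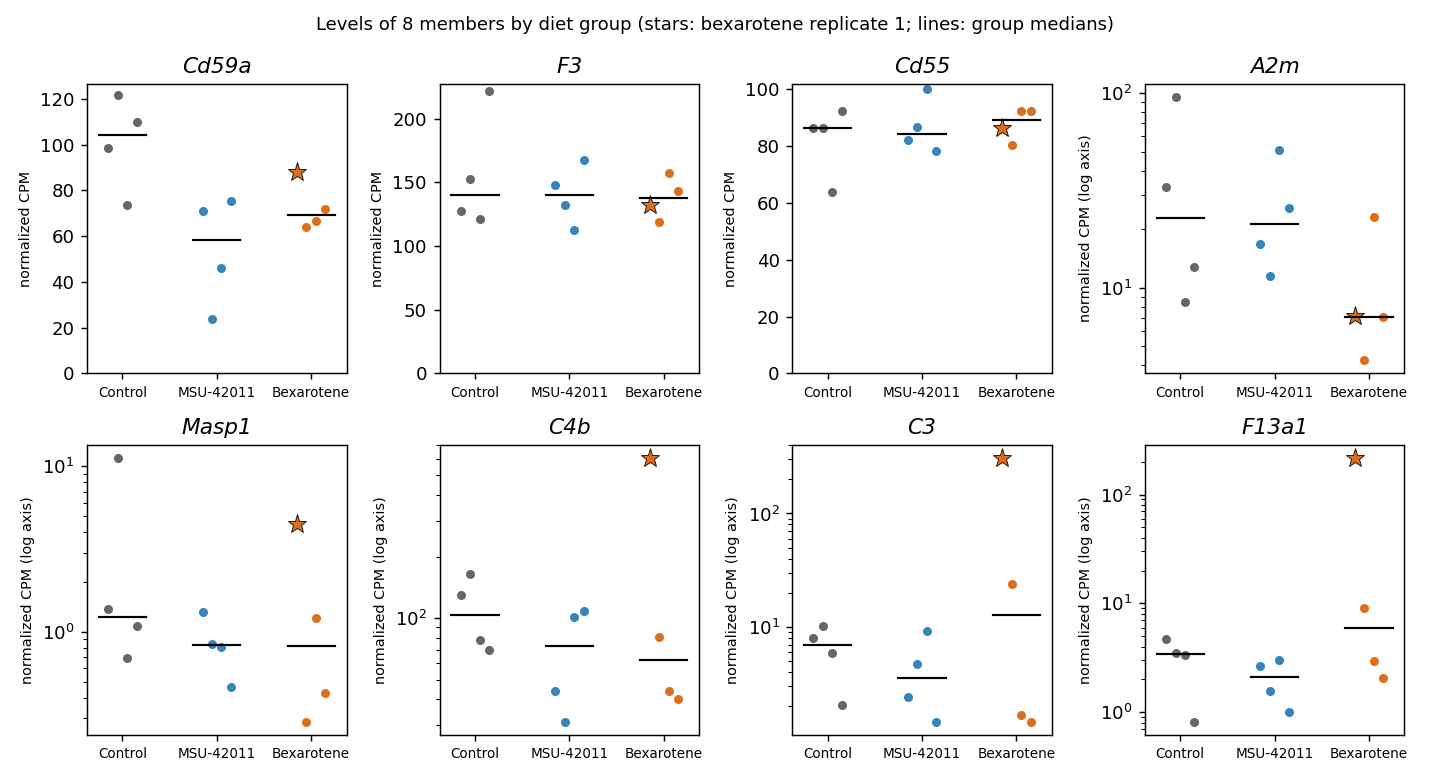
Normalized CPM of 8 members in each tumor by diet group, with lines at group medians and a star for bexarotene replicate 1; Cd59a, F3 and Cd55 are on linear axes from 0 and the others on log axes. Cd59a lies between 24.0 and 75.2 CPM under MSU-42011 and between 73.7 and 122 CPM under control diet, and F3 and Cd55 overlap in all groups.

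Among the clotting factors, F3 encodes tissue factor, the cell-bound starter of coagulation. It was the most abundant member per length in control tumors, at a median of 118 FPKM (a level per length of the gene and depth of the library), followed by Cd59a at 72.4, Cd55 at 49.6, C4b at 44.9 and Pros1 at 42.8 FPKM. In bexarotene replicate 1 the order was Serpinf1 at 348 FPKM, Serping1 at 281, C4b at 276, C3 at 192 and F3 at 121 FPKM. Normalized CPM of F3 was 121 to 222 in control tumors, 112 to 167 in MSU-42011 tumors and 119 to 157 in bexarotene tumors, so the groups overlapped. Its log2 fold change was -0.16 (95% interval -0.57 to 0.26) for MSU-42011 and -0.18 (-0.59 to 0.23) for bexarotene. F13a1, the transglutaminase subunit that crosslinks fibrin and a gene of resident macrophages, was at 4.75, 3.50, 3.37 and 0.819 CPM in control tumors, 2.64, 1.58, 3.03 and 1.01 CPM in MSU-42011 tumors, and 216, 9.01, 2.95 and 2.08 CPM in bexarotene tumors. The 2 highest tumors were again bexarotene replicates 1 and 2. Its log2 fold change was 4.22 ± 1.31 for bexarotene and -4.81 ± 1.36 for MSU-42011 against bexarotene (edgeR, adjusted p of 0.762 and 0.997), and 0.60 and -1.19 without bexarotene replicate 1.

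F5, the cofactor of factor Xa, was at 2.44 CPM in bexarotene replicate 1 and 0.0862 to 0.615 CPM elsewhere. F7 and F10, the proteases that act with tissue factor and with factor V, lie next to each other on chromosome 8 and were below the filter. F7 held 5, 10, 7 and 2 counts in control tumors, 0, 1, 1 and 2 in MSU-42011 tumors, and 37, 8, 5 and 2 in bexarotene tumors. The MSU-42011 tumors, at 0 to 0.0838 CPM, were all below the control tumors (0.0862 to 0.473 CPM) and the bexarotene tumors (0.123 to 1.37 CPM), though the gap to Control replicate 4 was that of 2 counts in each library. Exact permutation tests gave p = 0.0286 in both comparisons, the smallest possible, and 0.0571 for MSU-42011 against control on log2(FPKM + 1). At 3 counts or fewer the MSU-42011 levels were at or under the floor. F10 held 36 counts in bexarotene replicate 1 and 0 to 4 elsewhere.

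The protease-activated receptors F2r and F2rl1 (PAR1 and PAR2) sense thrombin and trypsin-like proteases. F2r was at 138 CPM in bexarotene replicate 1, 63.0 CPM in MSU-42011 replicate 3 and 14.9 to 36.0 CPM in the other 10 tumors. F2rl1 was at 9.74 CPM in bexarotene replicate 1, inside the 3.27 to 21.1 CPM of the others. Of the anticoagulants, thrombomodulin (Thbd) and the protein C receptor (Procr) sit on endothelium, Tfpi blocks tissue factor, and Pros1 encodes the cofactor protein S. Thbd was at 6.47, 3.22, 2.35 and 3.75 CPM in control tumors, 5.72, 2.42, 11.7 and 3.52 CPM in MSU-42011 tumors, and 67.3, 6.49, 2.71 and 2.82 CPM in bexarotene tumors. Apart from bexarotene replicate 1, MSU-42011 replicate 3 was the highest. The log2 fold change of Thbd for bexarotene was 2.33 ± 0.96 (edgeR, adjusted p = 0.762) and 0.03 without bexarotene replicate 1. Tfpi had 25.4 CPM in that tumor and 1.96 to 5.20 CPM elsewhere, Procr 15.9 CPM and 1.18 to 2.98 CPM, and Pros1 128 CPM and 27.7 to 108 CPM. Tfpi had a log2 fold change for bexarotene of 1.58 ± 0.66 (edgeR, adjusted p = 0.762) and 0.24 without bexarotene replicate 1. Procr had -1.55 ± 0.66 for MSU-42011 against bexarotene (edgeR, adjusted p = 0.997) and -0.19 without it. At 2.20 times the median of the others, Pros1 had the smallest ratio of the 21 tested members that were high. MSU-42011 replicate 3 was the highest of the other 11 tumors in 9 of the 34 members, and it also held the highest macrophage (596 CPM) and endothelial (241 CPM) marker sums of the 11. Bexarotene replicate 2 was the highest in 10 members and Control replicate 2 in 8. Control replicate 2 held the lowest fibroblast (112 CPM) and endothelial (91.1 CPM) marker sums. These counts were not made over all genes.

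Fibrinolysis was represented by the plasminogen activators Plat and Plau and the urokinase receptor Plaur. Plau was at 16.4, 12.9, 6.73 and 11.98 CPM in control tumors, 9.07, 6.48, 13.9 and 7.71 CPM in MSU-42011 tumors, and 63.0, 12.3, 8.52 and 5.95 CPM in bexarotene tumors. Apart from bexarotene replicate 1 the groups overlapped. Plat was at 48.4 CPM in bexarotene replicate 1 and 2.99 to 8.07 CPM elsewhere, with a log2 fold change for bexarotene of 1.48 ± 0.68 (edgeR, adjusted p = 0.773) and 0.0034 without it. Plaur was at 11.3 CPM in that tumor and 1.27 to 3.84 CPM in the others, and an exact permutation test for MSU-42011 against control gave p = 0.0857.

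A2m, a broad protease trap, went the other way from most members. It was at 32.9, 96.0, 8.50 and 12.8 CPM in control tumors, 16.8, 11.5, 51.4 and 25.6 CPM in MSU-42011 tumors, and 7.16, 4.24, 23.2 and 7.05 CPM in bexarotene tumors. Bexarotene replicate 3 lay among the controls and the other 3 bexarotene tumors below all of them. The log2 fold change for bexarotene was -1.85 ± 0.77 (edgeR, unadjusted p = 0.0333, adjusted p = 0.762), -1.70 without bexarotene replicate 1 and -0.80 without Control replicate 2. Serpinf1 encodes the pigment epithelium-derived factor, a serpin that inhibits no protease and is no clotting factor. It was at 10.7, 0.615, 2.03 and 2.33 CPM in control tumors, 1.21, 3.94, 1.95 and 1.05 CPM in MSU-42011 tumors, and 276, 20.6, 2.03 and 0.490 CPM in bexarotene tumors. Bexarotene tumors spanned the highest and the lowest levels. Its log2 fold change for bexarotene was 4.28 ± 1.52 and 0.99 without replicate 1 (edgeR, adjusted p of 0.762 and 0.978), and for MSU-42011 against bexarotene -5.22 and -1.93.

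To ask whether members moved with cell type markers apart from the outlying tumor, log2 levels of the 27 tested members were correlated with the summed markers of 4 lists over 11 tumors, without bexarotene replicate 1, as 108 pairs. Plau followed the macrophage markers (Pearson's r = 0.935, permutation p = 5.0e-05, adjusted p = 0.0032; Spearman's rho = 0.955, permutation p = 5.0e-05, adjusted p = 0.0054), and r was 0.931 without the 2 tumors farthest from the median. With fibroblast markers r of Plau was 0.530 (permutation p = 0.0939, adjusted p = 0.290). It was 0.912 without the 2 farthest for that list, Control replicate 2 and bexarotene replicate 2. Leaving these out moved other members in both directions, as Pros1 from 0.149 to 0.935 and C2 from 0.647 to -0.029. F2r followed the endothelial markers (r = 0.928, permutation p = 6.0e-05, adjusted p = 0.0032; rho = 0.918, permutation p = 0.00027, adjusted p = 0.0097), and r was 0.902 without the 2 farthest. Tfpi followed the summed fibroblast markers (r = 0.835, permutation p = 0.00099, adjusted p = 0.0267; rho = 0.918, permutation p = 0.00021, adjusted p = 0.0097), with r of 0.825 without the 2 farthest. Abundant genes weigh most in that sum, and its genes did not all move together. In MSU-42011 replicate 3, second highest of the 11 at 542 CPM, Col1a1 held 2943 counts, Dcn 2 and Lum 0.

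A further 3 pairs passed by 1 of the 2 measures. C1s1 with fibroblast markers passed by r (0.885, permutation p = 0.00021, adjusted p = 0.0076) and not by rho (0.809, permutation p = 0.0040, adjusted p = 0.0517). C1ra with fibroblast markers passed by rho (0.855, permutation p = 0.0015, adjusted p = 0.0335) and not by r (0.775, permutation p = 0.0052, adjusted p = 0.0543). Serping1 with macrophage markers passed by rho (0.864, permutation p = 0.0011, adjusted p = 0.0292) and not by r (0.784, permutation p = 0.0040, adjusted p = 0.0543). Without the 2 farthest tumors r was 0.788, 0.761 and 0.676 for these pairs. With luminal epithelial markers 0 of 27 members passed by either measure, and the largest r were 0.696 for Plaur (permutation p = 0.0148, adjusted p = 0.0941), 0.596 for Masp1 and 0.586 for Cd59a. Without MSU-42011 replicate 3, 0 pairs with fibroblast markers passed by r and 1 by rho, and without Control replicate 2, 18 of the 108 pairs passed by r and 14 by rho. The marker sums themselves were related (r = 0.628 between fibroblast and endothelial markers over these tumors), and all values share library depth. The 11 tumors come from 3 diet groups, which hold too few tumors for a correlation within each.

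**Figure D5:**
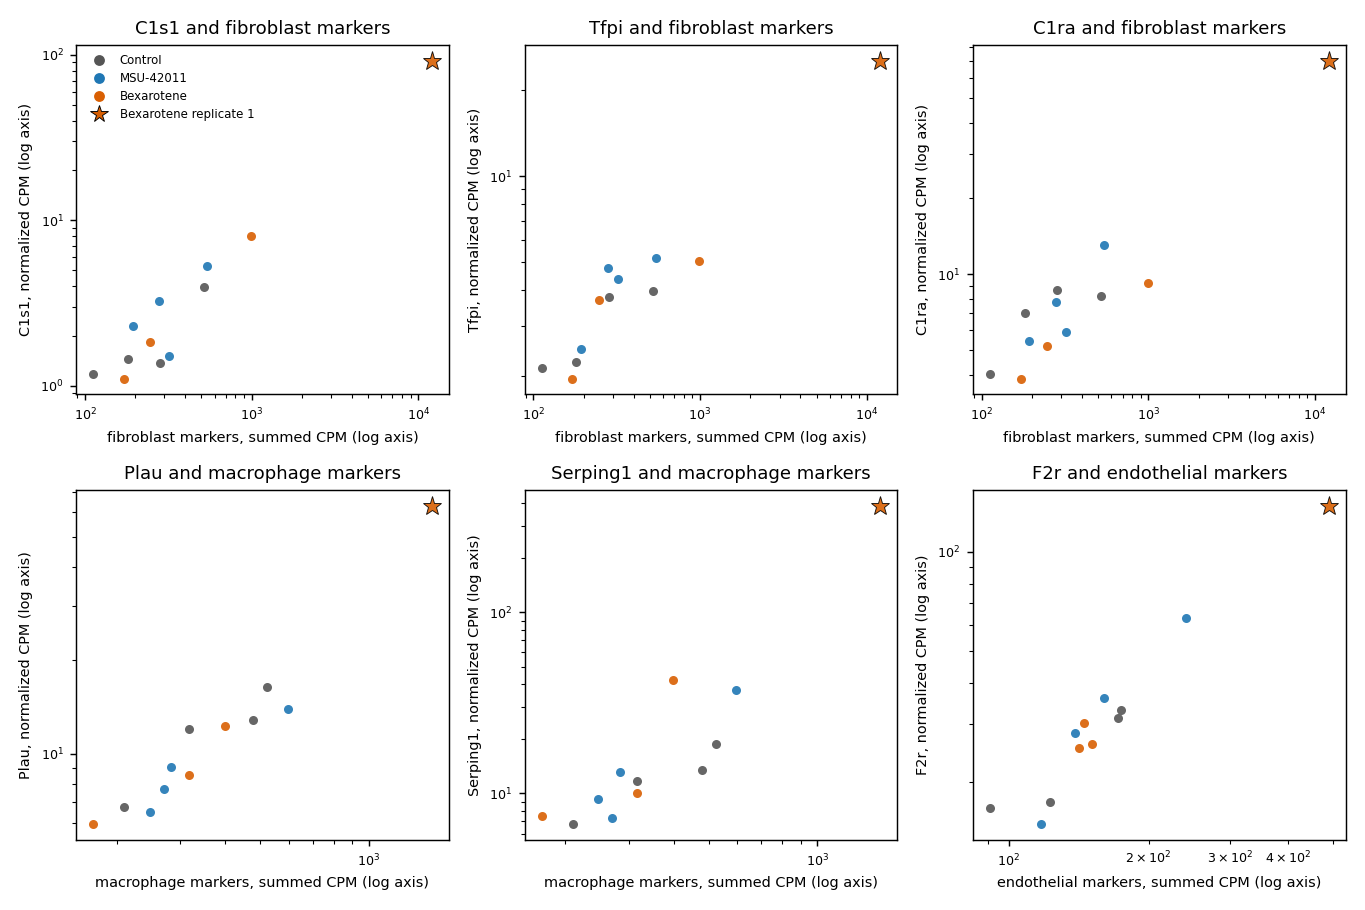
Normalized CPM of 6 members against the summed normalized CPM of the marker list with which each passed the test (both axes log), with 1 point per tumor and a star for bexarotene replicate 1, which was left out of the correlations. Over the other 11 tumors Plau rises with macrophage markers (r = 0.935) and F2r with endothelial markers (r = 0.928).

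A wider list of 77 other complement and coagulation genes was examined in the same fits, of which 38 were tested. At an unadjusted edgeR p under 0.05, bexarotene tumors were higher than control tumors in 5 of 38 (4.48% of all genes) and lower in 0 (1.96%). MSU-42011 tumors were higher than control tumors in 1, C8a, with a log2 fold change of 1.38 (1.14% of all genes), and lower in 0 (0.851%). MSU-42011 tumors were lower than bexarotene tumors in 5 (3.13%) and higher in 0 (0.819%). In edgeR 0 of 38 passed the Benjamini-Hochberg adjustment in any of these comparisons. Tfpi2, an inhibitor of proteases of the clotting system, was at 6.46 CPM in bexarotene replicate 1 and 0.160 to 1.35 CPM in the others, with a log2 fold change for bexarotene of 2.36, and 0.94 without that tumor. F8, which encodes factor VIII, had 1.02 and 0.82 without it. For MSU-42011 against bexarotene the log2 fold changes were -1.23 for Vtn, -0.27 for S100a10 and -0.80 for F8, and -0.80, -0.19 and -0.60 without bexarotene replicate 1. In bexarotene replicate 1, 16 of the 38 were high (11.5% of all genes) and 0 low (0.793%). Without that tumor, 1 was higher (1.6% of genes) and 1 lower (1.75%) for bexarotene against control, 2 were lower (1.09%) for MSU-42011 against control, and 0 had an unadjusted p under 0.05 between the agonists (1.59% of genes higher and 1.47% lower).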

How the data were processed

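Gene expression was measured by RNA-seq of poly(A)-enriched libraries from 12 tumors. The authors deposited raw read counts per gene, and FPKM values that they derived from these counts and a gene length listed in the same tables. The submitters' processing notes name STAR 2.6.1d, featureCounts 1.5.0-p3 and DESeq2; the strand setting and genome build are not given in the sources used here. Upstream sequences and their coordinates came from a RefSeq table of GRCm38.p6. Counts were normalized by TMM, filtered with filterByExpr (15504 of 54532 genes) and tested with edgeR 4.0.16 by quasi-likelihood F tests in 1 model of the 3 groups, with Benjamini-Hochberg adjustment over all tested genes; code was tested on simulated data. P-values of the group comparisons set the difference between groups against the spread between tumors. Levels are TMM-normalized CPM. Exact two-sided permutation tests used log2(CPM + 0.5), correlations 100000 permutations. Floors cover counting error only. All 34 members are named with their levels, those with an unadjusted p under 0.05 with their fold change, and at most 4 genes of the wider list per comparison, of which some are not reported here. The members and lists were chosen with earlier results of these data known. Alternatives included DESeq2 1.42.0, limma 3.58.1 on log2(FPKM + 1) or log2(FPKM + 0.1), other filters, robust estimation, a replicate block and each tumor left out, in R 4.3.3. The authors' own comparison columns were not used.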

Additional observations from a re-analysis of the deposited data

Results flagged for a closer look

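Within each group of 4 tumors, the highest or lowest tumor was noted where its gap to the nearest tumor, as a share of the range of the group, exceeded Dixon's 95% limit for 4 values, over 81 sets of 4 tumors for the 27 tested members. For independent, normally distributed values chance marks about 1 set in 20. Here 22 were marked, 18 of them bexarotene replicate 1 and all 18 on the high side. The marks were not counted over all tested genes. Bexarotene replicate 1 was the highest of the 12 tumors in 19.1% of the tested genes and high, as defined above, in 11.5%. The members share the same tumors, so these marks are not separate events and the 1 in 20 is only a rough guide.

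Of complement, bexarotene replicate 1 stood above the other bexarotene tumors in C1ra (70.5 CPM), C1s1 (92.5 CPM), C4b (606 CPM), C3 (307 CPM), Cfp (51.4 CPM), C3ar1 (55.8 CPM), C5ar1 (40.7 CPM) and Serping1 (388 CPM). Of coagulation and its receptors and inhibitors, it stood above them in F5 (2.44 CPM), F13a1 (216 CPM), F2r (138 CPM), Thbd (67.3 CPM), Tfpi (25.4 CPM), Procr (15.9 CPM), Plat (48.4 CPM), Plau (63.0 CPM) and Plaur (11.3 CPM). Serpinf1 (276 CPM), which is no clotting factor, was marked in this tumor too. The next bexarotene tumor was at 9.25 CPM for C1ra, 23.8 CPM for C3 and 9.01 CPM for F13a1. This tumor also had the highest fibroblast, macrophage, endothelial, platelet (30.4 CPM), adipocyte (104 CPM), myoepithelial (260 CPM), neutrophil and skeletal muscle marker sums of the 12, and the part of these in its levels was not tested.

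The other 4 sets were marked by other tumors. Control replicate 1 was above the other control tumors in C1s1 (3.98 CPM, next 1.44 CPM) and Serpinf1 (10.7 CPM, next 2.33 CPM), and this tumor held the highest fibroblast marker sum of the controls at 519 CPM. Control replicate 2 was above them in Masp1 (11.2 CPM, next 1.36 CPM). Bexarotene replicate 3 was above the other bexarotene tumors in A2m (23.2 CPM, next 7.16 CPM).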

How the results depend on the processing

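By an adjusted p under 0.05, 0 members passed in any comparison with edgeR, limma or DESeq2 at its defaults, and DESeq2 without its filter on Cook's distance called 1 (F13a1, MSU-42011 against bexarotene). Counts of members by unadjusted p (0.05) moved more. For MSU-42011 against control (1 member) there were 2 in DESeq2 without that filter and with the 2 groups fitted alone, 4 without a filter on low counts and 1 to 2 when single tumors were left out. For bexarotene against control (12 members) there were 1, 1 and 0 with limma on log2(FPKM + 1), on log2(FPKM + 0.1) and on genes with an FPKM of at least 1 in 4 tumors, and 2 to 16 when single tumors were left out, with 2 without bexarotene replicate 1, 6 without Control replicate 2 and 7 without Control replicate 4. For MSU-42011 against bexarotene (9 members) there were 1, 1 and 1 with limma, 14 without a filter on low counts, and 0 to 16 when single tumors were left out, with 0 without bexarotene replicate 1 and 15 and 16 without replicates 3 and 4. Among the 3 groups (9 members) there were 1, 1 and 1 with limma, 17 without a filter and 2 to 15 when single tumors were left out, with 2 without bexarotene replicate 1 and 15 without replicate 3 or 4. The median log2 fold change of members ranged over single tumors left out from 0.071 to 1.74 for bexarotene against control and from -1.58 to -0.025 for MSU-42011 against bexarotene. DESeq2 without bexarotene replicate 1, an alternative chosen after seeing the data, gave 1 member by unadjusted p in bexarotene against control, 0 in MSU-42011 against bexarotene and 1 among the 3 groups, medians of 0.066 and -0.022 in the first 2, and a log2 fold change of Plat of -0.0021, opposite in sign to 1.48. The exact tests of MSU-42011 against control reached p = 0.0286 for 1 member on log2(FPKM + 1) and for 2 on the CPM scale. Pairs of members and marker lists passing numbered 46 by r and 16 by rho over all 12 tumors, where bexarotene replicate 1 enters, and 2 to 18 by r and 3 to 14 by rho when single tumors were left out, the highest without Control replicate 2 and the lowest by r without MSU-42011 replicate 3. The cause of the other shifts was not tested. The share of all genes by unadjusted p moved too. For bexarotene against control, MSU-42011 against bexarotene and the 3 groups in turn it was 6.44%, 3.95% and 4.24% as reported, 3.61%, 2.01% and 2% with limma on log2(FPKM + 1), 6.24%, 4.74% and 4.92% without a filter, 4.59%, 2.68% and 2.39% with the replicate block, 3.35%, 3.07% and 2.46% without bexarotene replicate 1, and 10.1%, 7.87% and 7.11% without replicate 3. For these comparisons in the same order it was 8.67%, 6.05% and 6.01% without bexarotene replicate 4, and 3.93%, 3.67% and 3.31% in DESeq2 without bexarotene replicate 1. Limma on log2(FPKM + 0.1) gave 3.68%, 2.06% and 2.01%, and on genes with an FPKM of at least 1 in 4 tumors 3.45%, 2% and 1.84%. For bexarotene against control it was 4.74% without Control replicate 2 and 4.82% without Control replicate 4. For MSU-42011 against control it was 1.99% as reported, 2.23% without a filter, 2.66% with the 2 groups alone and 2.41% in DESeq2 without its filter on Cook's distance.

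The labels number tumors 1 to 4 in each group. Deviations of same-numbered tumors from their groups had correlations of -0.35 to 0.35 over 12 pairs, and those of different-numbered tumors -0.31 to 0.36 over 36. No pairing by number was seen, but so few pairs cannot exclude one, and the source of the numbers was not given. With the replicate block, the counts by unadjusted p were 2 for bexarotene against control, 2 for MSU-42011 against bexarotene and 2 among the 3 groups. Depth limits the members under 0.184 CPM, where 3 counts were taken as the floor.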
